A study of Homo sapiens with 6 samples.

Results

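ST6GALNAC5, L1CAM, SERPINI1, SERPINB2, LEF1, GJA1, PCDH7 and CTSS are 8 genes that earlier models of brain metastasis, most of them in breast or lung cancer cells, tied to the entry of tumour cells into the brain or to their growth there. They were taken by name from a list drawn up with earlier results of these data known, and all 8 were found among the 26485 genes measured in each library. The RNA-seq data comprise 6 libraries in 3 groups of 2, PC9-AMG, PC9-BrM4 and PC9. PC9 is an established human lung adenocarcinoma cell line with an activating mutation of EGFR, and no other allele, transgene or agent is given for any group. The labels do not expand AMG or BrM4, although BrM is in wide use for brain-metastatic derivatives of a line. All 6 libraries came from cancer cells cultured in MGS, a term the labels do not expand, and the library names hold the word mix without saying what was mixed. Whether a derivative is 1 clone or a population, and whether the 2 libraries of a group came from separate cultures, is not given. The p-values therefore measure the spread between libraries, which may be technical.

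To colonise the brain, a tumour cell must leave the blood through a vessel wall sealed by astrocyte-backed tight junctions and then survive among glia. ST6GALNAC5 is a sialyltransferase that adds sialic acid to gangliosides and is normally active mainly in the brain, and CTSS, cathepsin S, is a secreted and lysosomal cysteine protease reported to cut the junction protein JAM2. L1CAM is an adhesion molecule with which tumour cells spread along brain capillaries, and plasmin can cleave it, whereas the serpins SERPINI1 (neuroserpin) and SERPINB2 inhibit the activators that make plasmin. LEF1 is a transcription factor of the WNT pathway that was described together with HOXB9. PCDH7, a protocadherin, and GJA1, a connexin, were described as joining tumour cells to astrocytes through gap junctions, which pass the product of the DNA sensor CGAS to its receptor STING1 in the astrocyte.

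ST6GALNAC5 and L1CAM were the 2 of these genes that were higher in PC9-BrM4 than in PC9, and CTSS and PCDH7 were lower. PC9-AMG was lower than PC9-BrM4 in ST6GALNAC5 and L1CAM, higher than PC9-BrM4 in CTSS, and lower than PC9 in PCDH7. SERPINI1 and LEF1 were not called in any comparison, and SERPINB2 and GJA1 were below the filter on low levels. A gene is called here when its Benjamini-Hochberg adjusted p from limma on log2(TPM + 1) is under 0.05 over the 14627 genes that reached 1 TPM in 2 or more libraries. TPM is a transcript level scaled for gene length and for the library's total.

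Of the 8 genes, 6 passed that filter, and ST6GALNAC5 passed it only through the 2 PC9-BrM4 libraries in which it was high. PC9-BrM4 against PC9 called 4 of the tested members, where 16.3% of all tested genes were called. Of these, 2 were higher (9.89% of all tested genes) and 2 lower (6.45%). PC9-AMG against PC9 called 1, which was lower, where 7.49% of all tested genes were called in either direction and 3.82% lower. PC9-AMG against PC9-BrM4 called 3, where 18.6% of all tested genes were called. Of these, 1 was higher (6.31% of all tested genes) and 2 lower (12.3%). With so few members, and with 1 of them tested only because it was high in 1 group, these counts are a description of the members and not of the group of genes. By libraries alone, 2 tested members were higher without overlap in PC9-BrM4 than in PC9 (39.2% of all tested genes) and 3 were lower (21.9%). In PC9-AMG against PC9, 1 was higher (24.8%) and 3 were lower (35.0%), and in PC9-AMG against PC9-BrM4, 2 were higher (19.0%) and 4 lower (40.5%). PC9-AMG and PC9-BrM4 were each set against the same 2 PC9 libraries.

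**Figure D1:**
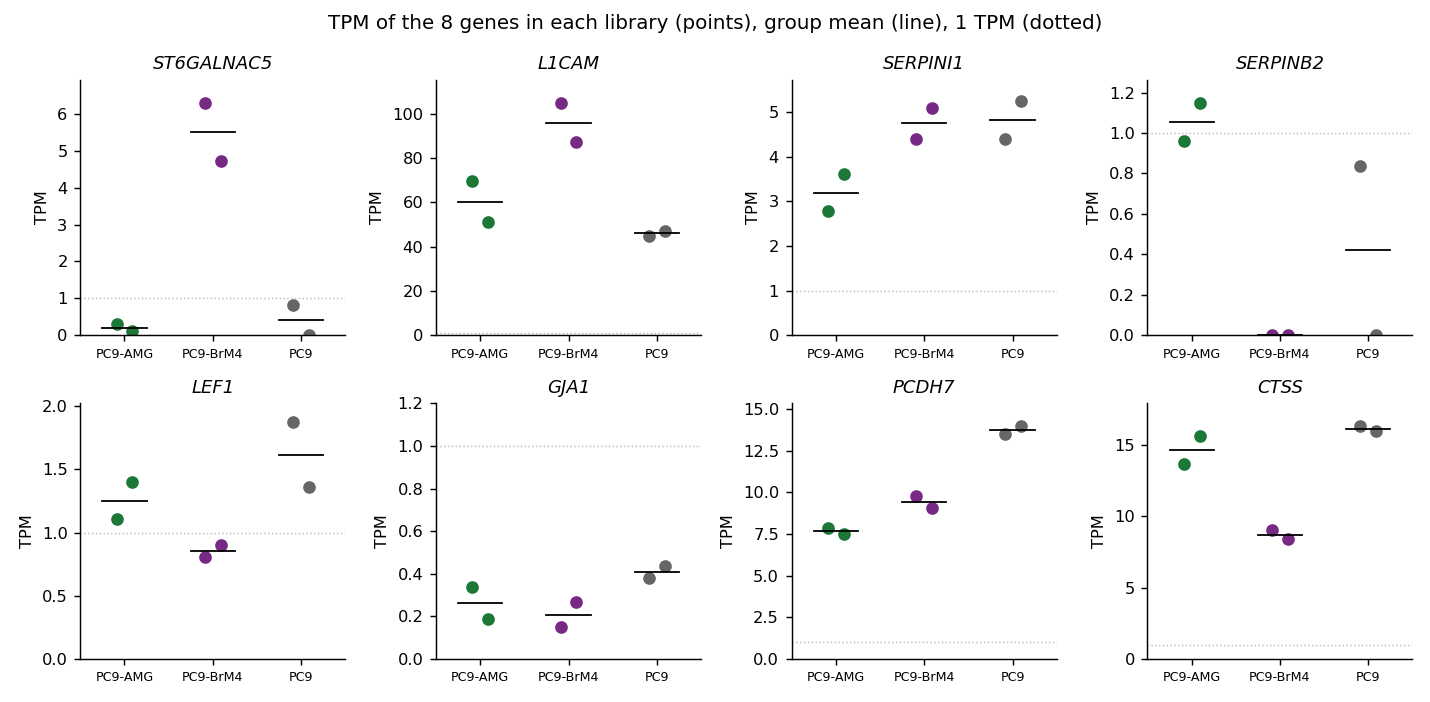
TPM of the 8 genes (y axis, a scale of its own for each gene, from 0) in each library of PC9-AMG, PC9-BrM4 and PC9 (x axis). Points are libraries, horizontal lines are group means of 2 libraries and the dotted line marks 1 TPM. ST6GALNAC5 reached 6.29 and 4.72 TPM in PC9-BrM4 and stayed at or below 0.822 TPM in the other 4 libraries, whereas CTSS was lowest in PC9-BrM4.

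The 2 genes that rose in PC9-BrM4, and PCDH7, which was lower in both derivatives than in PC9, are shown with the 300 bases around their start sites, from 250 bases before the start to 50 after it, since the values concern how much of each transcript was present. The sequences are from RefSeq (GRCh38.p14), are written 5′ to 3′ on the strand of the gene, and carry matches to short promoter motifs in capitals: GGGCGG (the GC box) and CCAAT, each on either strand, so that CCGCCC and ATTGG mark the other strand. The windows are chr1:76867230-76867529 on the plus strand for ST6GALNAC5, chrX:153875895-153876194 on the minus strand for L1CAM, and chr4:30720119-30720418 on the plus strand for PCDH7.
ST6GALNAC5: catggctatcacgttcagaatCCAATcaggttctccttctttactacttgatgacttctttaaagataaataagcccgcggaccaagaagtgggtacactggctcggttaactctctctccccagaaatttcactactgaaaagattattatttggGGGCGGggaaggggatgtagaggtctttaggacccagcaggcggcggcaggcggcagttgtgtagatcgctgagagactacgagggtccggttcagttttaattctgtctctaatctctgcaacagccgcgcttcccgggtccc
L1CAM: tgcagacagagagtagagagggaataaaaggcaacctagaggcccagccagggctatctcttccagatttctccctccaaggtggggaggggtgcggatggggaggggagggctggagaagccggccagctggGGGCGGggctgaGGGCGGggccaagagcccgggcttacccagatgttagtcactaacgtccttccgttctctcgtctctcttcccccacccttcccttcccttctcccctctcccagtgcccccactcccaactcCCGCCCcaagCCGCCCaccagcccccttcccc
PCDH7: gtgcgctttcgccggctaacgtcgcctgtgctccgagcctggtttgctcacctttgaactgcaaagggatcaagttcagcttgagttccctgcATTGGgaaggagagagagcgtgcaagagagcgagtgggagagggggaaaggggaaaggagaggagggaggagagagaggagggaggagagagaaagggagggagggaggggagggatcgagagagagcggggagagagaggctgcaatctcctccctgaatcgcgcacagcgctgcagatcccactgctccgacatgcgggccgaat

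The ST6GALNAC5 window held 1 GC box, 94 bases before the start, and 1 CCAAT box, 229 bases before it. The L1CAM window held 4 GC boxes and the PCDH7 window none, while PCDH7 held 1 CCAAT box 157 bases before its start. GC boxes occur in 45.0% and CCAAT in 34.6% of the 35116 RefSeq promoter windows of the same length. The L1CAM window lies inside the gene model of the deposited tables, which starts further upstream, and a window that overlaps it is listed for a further RefSeq start of the gene. In all, 7 of the 8 genes had a window in the table, and none of their windows held CTTTGAT, the core recognised by LEF1 and its relatives, which 2.62% of windows hold on either strand.

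The 2 members below the filter, SERPINB2 and GJA1, had the fewest CpG dinucleotides in their windows, 1 and 3, against 8 to 16 in the windows of the other 5 and a median of 14 over all windows. They were also the 2 with a match to TGANTCA, the AP-1 site, 102 bases before the start of SERPINB2 and 48 bases before that of GJA1, and 7.71% of all windows hold such a match. SERPINB2 alone among the 7 had a TATAAA box, 30 bases before its start, as do 11.5% of windows at some position. Low levels also occurred with more CpG. The window of ST6GALNAC5, at or below 0.822 TPM outside PC9-BrM4, held 14, and that of LEF1, low in every library, held 9. Like that of L1CAM, the LEF1 window lies inside the gene model of the deposited tables, which starts further upstream. A link between these windows and the levels of the genes was not tested.

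ST6GALNAC5 lies on chromosome 1 (hg38, 76867501 to 77064052, plus strand). Its level was 0.299 and 0.0998 TPM in PC9-AMG, 6.29 and 4.72 TPM in PC9-BrM4, and 0.822 and 0 TPM in PC9. Both PC9-BrM4 libraries were above all others, and the PC9-AMG and PC9 libraries overlapped. The authors' mean read coverage per base was 0.246 and 0.0748 in PC9-AMG, 4.003 and 2.86 in PC9-BrM4, and 0.546 and 0 in PC9, so the low levels outside PC9-BrM4 rest on few reads. On log2(TPM + 1), ST6GALNAC5 was 2.43 lower in PC9-AMG than in PC9-BrM4 (difference -2.43, 95% interval -3.14 to -1.73, limma adjusted p = 0.000924), and every fit without 1 of the 4 libraries kept that call (adjusted p up to 0.0346). The difference of PC9-BrM4 from PC9 was 2.26 (interval 1.55 to 2.96, adjusted p = 0.00131), and it ran from 1.83 to 2.69 without 1 library. ST6GALNAC5 was tested only because it was high in PC9-BrM4, so these p-values describe its levels and add no separate support. PC9-AMG and PC9 differed by -0.18 with an interval of -0.88 to 0.53 (adjusted p = 0.775), and leaving out PC9 library 1 turned that difference to 0.26. MIR7156, a microRNA gene inside ST6GALNAC5 on the same strand, was listed at 1.78 TPM in PC9-BrM4 library 1 and at 0 in the other 5.

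By the smallest root mean square difference over the 6 libraries on log2(TPM + 1), each gene centred on its mean, DPP4 (0.213) and CDSN (0.229) had the profiles most like that of ST6GALNAC5 among 10717 genes searched. DPP4, a cell-surface peptidase, had 1.14 and 0.793 TPM in PC9-AMG, 12.4 and 11.3 TPM in PC9-BrM4, and 1.73 and 1.24 TPM in PC9. Both genes were selected for this likeness, so it is a description with no test.

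Of 28 genes of sialyltransferases, ganglioside synthesis and sialic acid supply, 23 were tested, and PC9-BrM4 against PC9 called 1 higher and none lower, where 16.3% of all tested genes were called. The call was of SLC35A1, the transporter of activated sialic acid (0.52, adjusted p = 0.0476), and it did not hold in any fit without 1 library (0.0764 to 0.332) or under any of the 3 other scalings. Centring the libraries on their medians gave 0 higher and 3 lower. The family members ST6GALNAC4 (24.7 ± 1.83 TPM in PC9-BrM4 and 22.2 ± 0.700 TPM in PC9, SD, n = 2 each) and ST6GALNAC6 (31.8 ± 0.262 TPM in PC9-BrM4 and 42.3 ± 2.95 TPM in PC9) were not called. PC9-AMG against PC9-BrM4 called 7 lower and 0 higher (2 higher and 5 lower after median centring), where 18.6% of all tested genes were called, and 2 of these calls held without each library. ST6GAL1, which adds sialic acid to N-glycans, averaged 11.8 ± 1.11 TPM in PC9-AMG and 24.1 ± 3.67 TPM in PC9-BrM4 (difference -0.96, adjusted p = 0.00246). GNE, the enzyme that starts sialic acid synthesis, averaged 11.3 ± 0.980 TPM in PC9-AMG and 20.3 ± 1.84 TPM in PC9-BrM4 (difference -0.79, adjusted p = 0.00447). PC9-AMG against PC9 called 3 genes lower and none higher, none of which held without each library.

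L1CAM lies on chromosome X (hg38, 153861514 to 153886174, minus strand) and was the most abundant of the 8 genes in every library. Its libraries held 69.5 and 51.3 TPM in PC9-AMG, 105 and 87.2 TPM in PC9-BrM4, and 44.6 and 47.3 TPM in PC9. The 3 groups did not overlap, with PC9-BrM4 highest and PC9-AMG between. PC9-BrM4 exceeded PC9 by 1.04 on log2(TPM + 1) (interval 0.70 to 1.38, limma adjusted p = 0.00165, up to 0.0408 without 1 library). PC9-AMG was lower than PC9-BrM4 (-0.67, interval -1.01 to -0.33, adjusted p = 0.0146), but that call was lost without PC9-BrM4 library 1 (adjusted p = 0.144) and without PC9-AMG library 2 (0.0822). PC9-AMG against PC9 differed by 0.37 (interval 0.03 to 0.71), which was not called (adjusted p = 0.161). In that comparison 24.8% of all tested genes were higher without overlap. LCA10, which overlaps L1CAM on the opposite strand, was listed at 0.244 TPM in PC9-BrM4 library 2 and at 0 in the other 5 libraries.

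PLXND1 (0.054) and SFMBT1 (0.067) had the profiles most like that of L1CAM by the same root mean square difference. PLXND1, a semaphorin receptor, had 17.5 and 13.7 TPM in PC9-AMG, 26.1 and 21.5 TPM in PC9-BrM4, and 10.5 and 11.5 TPM in PC9. AVPR2, the nearest tested gene beyond the 5′ end of L1CAM at 16357 bases, averaged 6.90 TPM in PC9-AMG, 11.3 TPM in PC9-BrM4 and 5.23 TPM in PC9. Its PC9-BrM4 to PC9 difference of 0.98 (adjusted p = 0.0114) kept its call in 1 of 4 fits that left out a library (adjusted p 0.0331 to 0.0844).

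Among 22 relatives, receptors and partners of L1CAM, 15 were tested. PC9-BrM4 against PC9 called 3 higher and 1 lower (2 and 2 after median centring), where 16.3% of all tested genes were called. EZR, ezrin, which links membrane proteins including L1CAM to actin, averaged 350 ± 5.24 TPM in PC9-AMG, 688 ± 56.6 TPM in PC9-BrM4 and 392 ± 1.53 TPM in PC9. It rose in PC9-BrM4 against PC9 (0.81, adjusted p = 0.000206) and was lower in PC9-AMG than in PC9-BrM4 (-0.97, adjusted p = 8.41e-05). These were the calls of the list that held without each library. PC9-AMG against PC9 called 0 of the list, beside 7.49% of all tested genes. PC9-AMG against PC9-BrM4 called 1 higher and 5 lower (1 and 2 after median centring), beside 18.6% of all. CHL1, the closest relative of L1CAM, was listed at 0 in all 6 libraries.

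SERPINI1 lies on chromosome 3 (hg38, 167735644 to 167825569, plus strand). Its level was 2.78 and 3.61 TPM in PC9-AMG, 4.39 and 5.11 TPM in PC9-BrM4, and 4.40 and 5.25 TPM in PC9. PC9-BrM4 and PC9 overlapped, and both PC9-AMG libraries were below the other 4. The PC9-BrM4 to PC9 difference was -0.02 (interval -0.46 to 0.42, limma adjusted p = 0.964). The PC9-AMG differences were -0.48 from PC9 (interval -0.92 to -0.04, adjusted p = 0.167) and -0.46 from PC9-BrM4 (interval -0.90 to -0.02, adjusted p = 0.131), neither called. PDCD10, which lies head to head with SERPINI1 on the opposite strand 781 bases away, averaged 150 TPM in PC9-AMG, 177 TPM in PC9-BrM4 and 156 TPM in PC9 and was not called.

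SERPINB2 lies on chromosome 18 (hg38, 63887705 to 63903890, plus strand) and had at least 1 TPM in 1 library. It had 0.960 and 1.15 TPM in PC9-AMG, was listed at 0 in both PC9-BrM4 libraries, and had 0.837 and 0 TPM in PC9. The PC9-AMG libraries were thus the highest, with mean coverage of 0.790 and 0.859 reads per base. In the fit without a filter on low values, which holds 18978 genes, the PC9-AMG to PC9-BrM4 difference was 1.04 (adjusted p = 0.0779) and no SERPINB2 difference was called.

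The plasminogen activators and their inhibitor SERPINE2 were at far higher levels than SERPINI1 and SERPINB2. PLAU fell in PC9-BrM4, and SERPINE2 was lower in both derivatives than in PC9. PLAU, the urokinase activator, averaged 473 ± 30.4 TPM in PC9-AMG, 316 ± 1.10 TPM in PC9-BrM4 and 479 ± 7.64 TPM in PC9. It fell in PC9-BrM4 against PC9 (-0.60, adjusted p = 0.00102) and was higher in PC9-AMG than in PC9-BrM4 (0.58, adjusted p = 0.00132). SERPINE2, which inhibits both activators, averaged 340 ± 20.5 TPM in PC9-AMG, 345 ± 10.8 TPM in PC9-BrM4 and 501 ± 3.82 TPM in PC9. It fell in PC9-BrM4 against PC9 (-0.54, limma adjusted p = 0.00205) and in PC9-AMG against PC9 (-0.56, limma adjusted p = 0.00626). The PLAU calls and the PC9-BrM4 call of SERPINE2 held without each library. The PC9-AMG call of SERPINE2 did not, with differences of -0.55 without PC9 replicate 1 and -0.57 without PC9 replicate 2.

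PLAT, the tissue-type activator that SERPINI1 inhibits, averaged 105 ± 0.290 TPM in PC9-AMG, 132 ± 9.25 TPM in PC9-BrM4 and 159 ± 5.65 TPM in PC9. It was lower in PC9-AMG than in PC9 (-0.59, adjusted p = 0.00892), a call lost without PC9 library 1 (0.0753), PC9 library 2 (0.111) or PC9-AMG library 2 (0.0552). PC9-BrM4 against PC9 did not call it (-0.27, adjusted p = 0.0838). PLAUR, the urokinase receptor, averaged 157 ± 1.96 TPM in PC9-AMG and 117 ± 6.78 TPM in PC9-BrM4 (0.43, adjusted p = 0.0109, or 0.0625 without PC9-BrM4 library 1). FAS, whose ligand plasmin releases from astrocytes, averaged 5.19 ± 1.80 TPM in PC9-AMG, 5.52 ± 0.359 TPM in PC9-BrM4 and 4.82 ± 0.963 TPM in PC9 and was not called. PLG, which encodes plasminogen, was listed at 0 in all 6 libraries.

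Over all tested genes, 16.3% were called in PC9-BrM4 against PC9, 7.49% in PC9-AMG against PC9 and 18.6% in PC9-AMG against PC9-BrM4. Of 23 genes of the plasmin system, 17 were tested, and PC9-BrM4 against PC9 called 3 higher and 3 lower (0 and 4 after median centring). PC9-AMG against PC9 called 1 higher and 2 lower (2 and 2 after median centring), none of which held without each library. PC9-AMG against PC9-BrM4 called 3 higher and 3 lower (4 and 1 after median centring). In this comparison, as in PC9-BrM4 against PC9, 3 of the 6 calls held without each library. The list's median difference for PC9-BrM4 against PC9 was 0.02, beside 0.09 over all tested genes.

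**Figure D2:**
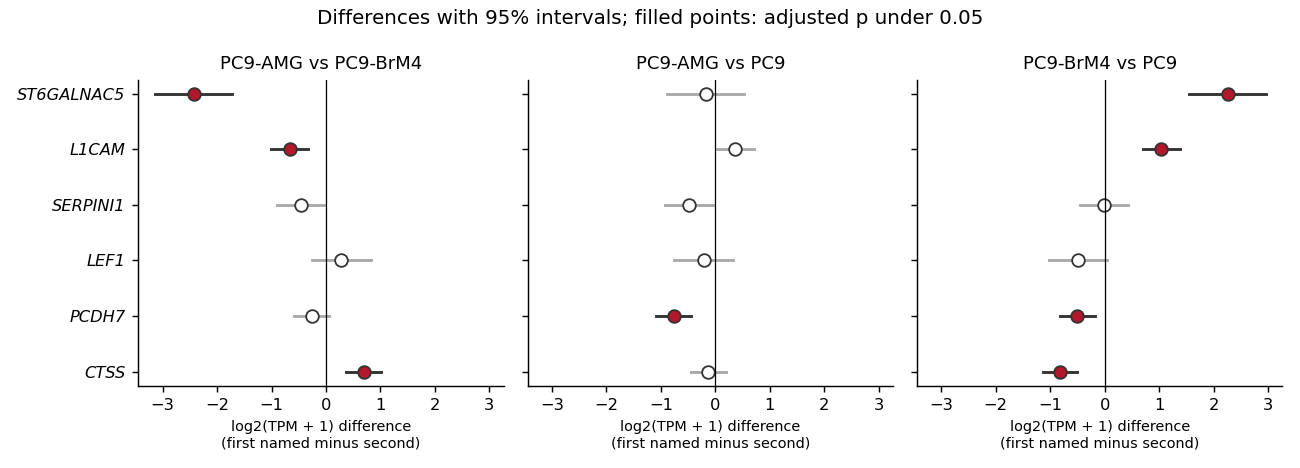
Differences on log2(TPM + 1) of the 6 tested genes (rows) in PC9-AMG against PC9-BrM4, PC9-AMG against PC9 and PC9-BrM4 against PC9, with 95% limma intervals as horizontal lines and filled points where the adjusted p was under 0.05. ST6GALNAC5 stands at -2.43, -0.18 and 2.26, and every SERPINI1 and LEF1 difference lay within 0.5 of 0.

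LEF1 lies on chromosome 4 (hg38, 108047545 to 108168956, minus strand) and was low in every library. Its libraries held 1.10 and 1.40 TPM in PC9-AMG, 0.805 and 0.901 TPM in PC9-BrM4, and 1.87 and 1.36 TPM in PC9. Both PC9-BrM4 libraries were below the other 4, and PC9-AMG and PC9 overlapped. The PC9-BrM4 to PC9 difference was -0.49 (interval -1.03 to 0.05, limma adjusted p = 0.205), in a comparison where 21.9% of tested genes were lower without overlap. The other differences were -0.21 for PC9-AMG against PC9 (adjusted p = 0.626) and 0.28 for PC9-AMG against PC9-BrM4 (adjusted p = 0.439). LEF1-AS1, on the opposite strand, was listed at 0 in all 6 libraries. HOXB9 was lower still, at 0.383 and 0.253 TPM in PC9-AMG, 0.176 and 0.150 TPM in PC9-BrM4, and 0.573 and 0.152 TPM in PC9.

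TCF7L1, a relative of LEF1 that binds the same DNA core and acts mostly as a repressor, rose in PC9-BrM4. It averaged 2.08 ± 0.710 TPM in PC9-AMG, 7.84 ± 1.22 TPM in PC9-BrM4 and 1.01 ± 0.233 TPM in PC9. Its difference was 2.14 for PC9-BrM4 against PC9 (adjusted p = 0.000316) and -1.53 for PC9-AMG against PC9-BrM4 (adjusted p = 0.00233), and both calls held without each library. TCF7L2 was not called, at 5.69 ± 0.229 TPM in PC9-AMG, 6.34 ± 0.137 TPM in PC9-BrM4 and 6.49 ± 0.257 TPM in PC9. The share of all tested genes called was 16.3% in PC9-BrM4 against PC9, 7.49% in PC9-AMG against PC9 and 18.6% in PC9-AMG against PC9-BrM4. Of 34 WNT genes, 29 were tested. PC9-BrM4 against PC9 called 4 higher and 1 lower (2 and 4 after median centring), PC9-AMG against PC9 called 1 higher and 3 lower (1 and 2), and PC9-AMG against PC9-BrM4 called 3 higher and 6 lower (4 and 5). Of these calls, 1 of 5, 0 of 4 and 1 of 9 held without each library.

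PCDH7 lies on chromosome 4 (hg38, 30720408 to 31146801, plus strand). Its level was 7.86 and 7.51 TPM in PC9-AMG, 9.79 and 9.07 TPM in PC9-BrM4, and 13.5 and 13.9 TPM in PC9. The groups did not overlap, and the order was PC9 highest and PC9-AMG lowest. PCDH7 was lower than in PC9 in both derivatives, by a difference of -0.76 in PC9-AMG (interval -1.09 to -0.44, limma adjusted p = 0.0169) and -0.50 in PC9-BrM4 (interval -0.82 to -0.17, adjusted p = 0.0443). Neither call held without any 1 library: the adjusted p was 0.0616 to 0.168 for PC9-AMG and 0.0674 to 0.297 for PC9-BrM4. PC9-AMG and PC9-BrM4 differed by -0.26 (interval -0.59 to 0.06, adjusted p = 0.226).

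GJA1 lies on chromosome 6 (hg38, 121435577 to 121449744, plus strand) and stayed below 1 TPM in all 6 libraries. It was measured at 0.336 and 0.189 TPM in PC9-AMG, 0.148 and 0.266 TPM in PC9-BrM4, and 0.380 and 0.435 TPM in PC9, with 0.0944 to 0.276 reads per base. Both PC9 libraries were above the other 4, and without a filter on low values no difference was called (smallest adjusted p = 0.280).

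Among the other connexins, GJB1, GJB6 and GJC3 were listed at 0 in all 6 libraries, whereas GJA5 and GJB2 were above GJA1 in every library. GJA5 averaged 3.73 ± 1.04 TPM in PC9-AMG, 18.9 ± 1.66 TPM in PC9-BrM4 and 1.28 ± 0.235 TPM in PC9 (3.12 for PC9-BrM4 against PC9, adjusted p = 1.25e-05, and -2.08 for PC9-AMG against PC9-BrM4, adjusted p = 0.000217). Both calls held without each library, whereas the call of GJA5 as higher in PC9-AMG than in PC9 (1.04) did not. GJB2 averaged 5.36 ± 0.754 TPM in PC9-AMG, 10.3 ± 0.195 TPM in PC9-BrM4 and 9.76 ± 1.50 TPM in PC9. It was called lower in PC9-AMG than in PC9 (-0.76, adjusted p = 0.0319) and than in PC9-BrM4 (-0.83). Neither call of GJB2 held without each library. Across all tested genes, 16.3% were called in PC9-BrM4 against PC9, 7.49% in PC9-AMG against PC9 and 18.6% in PC9-AMG against PC9-BrM4. Of 26 connexins, pannexins, protocadherins and partners, 13 were tested. PC9-BrM4 against PC9 called 4 higher and 1 lower, with the same split after median centring. PC9-AMG against PC9 called 2 higher and 1 lower (3 and 1), and PC9-AMG against PC9-BrM4 called 0 higher and 6 lower (0 and 5). Of these calls, 3 of 5, 0 of 3 and 3 of 6 held without each library.

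Transcripts of the sensing arm that these junctions were described to feed were measured in all 6 libraries. MB21D1, now named CGAS, averaged 22.2 ± 2.52 TPM in PC9-AMG, 23.8 ± 2.31 TPM in PC9-BrM4 and 20.9 ± 0.950 TPM in PC9 and was not called. TMEM173, now named STING1, averaged 30.0 ± 3.81 TPM in PC9-AMG, 23.9 ± 1.61 TPM in PC9-BrM4 and 37.6 ± 0.545 TPM in PC9. It was lower in PC9-BrM4 than in PC9 (-0.64, adjusted p = 0.00975), a call lost without PC9 library 1 (0.0759), PC9 library 2 (0.0908) or PC9-BrM4 library 2 (0.0540). BST2, an interferon-induced membrane protein, averaged 4.11 ± 0.614 TPM in PC9-AMG, 22.3 ± 1.88 TPM in PC9-BrM4 and 2.30 ± 1.25 TPM in PC9 (2.87 for PC9-BrM4 against PC9, adjusted p = 7.44e-05). Of 28 genes of this arm and of the interferon and NF-kB response, 27 were tested. PC9-BrM4 against PC9 called 4 higher and 1 lower (3 and 3 after median centring), where 16.3% of all tested genes were called. PC9-AMG against PC9 called 1 higher and 0 lower, beside 7.49% of all. PC9-AMG against PC9-BrM4 called 1 higher and 4 lower (4 and 4), beside 18.6% of all. Of these calls, 1 of 5, 0 of 1 and 2 of 5 held without each library.

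CTSS lies on chromosome 1 (hg38, 150730196 to 150765957, minus strand). Its libraries held 13.7 and 15.7 TPM in PC9-AMG, 9.03 and 8.40 TPM in PC9-BrM4, and 16.3 and 16.0 TPM in PC9. The PC9-BrM4 libraries were below all others, and both PC9-AMG libraries were just below PC9. CTSS fell in PC9-BrM4 against PC9 (-0.82, interval -1.14 to -0.50, limma adjusted p = 0.00446), a call lost without PC9 library 1 (0.0534). It was higher in PC9-AMG than in PC9-BrM4 (0.69, interval 0.37 to 1.01, adjusted p = 0.00991), a call lost without PC9-AMG library 2 (0.0644). PC9-AMG and PC9 differed by -0.13 (interval -0.45 to 0.19, adjusted p = 0.603).

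Of the other cathepsins, CTSA, CTSD, CTSF, CTSH and CTSL were called lower in PC9-BrM4 than in PC9, and CTSC higher. Of all tested genes, 6.45% were called lower and 9.89% higher there. The calls of CTSA, CTSD, CTSF and CTSH did not hold without each library. CTSL, a related lysosomal protease, averaged 251 ± 4.02 TPM in PC9-AMG, 117 ± 7.39 TPM in PC9-BrM4 and 272 ± 2.02 TPM in PC9 (-1.21 for PC9-BrM4 against PC9, adjusted p = 2.13e-05, and 1.09 for PC9-AMG against PC9-BrM4, adjusted p = 5.52e-05). CTSC, which activates serine proteases of leukocytes, was opposite, with 124 ± 9.12 TPM in PC9-AMG, 341 ± 23.97 TPM in PC9-BrM4 and 120 ± 6.02 TPM in PC9 (1.50, adjusted p = 1.15e-05, and -1.45, adjusted p = 2.49e-05). The 4 calls given for CTSL and CTSC held without each library. CTSB averaged 337 ± 15.4 TPM in PC9-AMG, 354 ± 6.26 TPM in PC9-BrM4 and 410 ± 1.63 TPM in PC9 and was not called. CST3, the secreted inhibitor cystatin C, averaged 622 ± 1.21 TPM in PC9-AMG, 545 ± 54.2 TPM in PC9-BrM4 and 626 ± 19.9 TPM in PC9 and was not called. JAM2, the junction protein that CTSS was reported to cut, was listed at 0 in all 6 libraries, and CLDN3, a tight junction claudin of epithelia, averaged 165 ± 18.5 TPM in PC9-BrM4 and 79.4 ± 2.88 TPM in PC9 (1.04, adjusted p = 0.000182).

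In PC9-BrM4 against PC9, 9.89% of all tested genes were called higher and 6.45% lower. In either direction, PC9-AMG against PC9 called 7.49% of them and PC9-AMG against PC9-BrM4 18.6%. Of 30 cathepsins, cystatins and junction genes, 23 were tested. PC9-BrM4 against PC9 called 2 higher and 8 lower, with the same split after median centring, and 4 of these calls held without each library. The lower calls were of these cathepsins and of the cystatins CST1, CST4 and CSTA, and the higher ones of CTSC and CLDN3. The list's median was -0.20, beside 0.09 over all tested genes. PC9-AMG against PC9 called 1 higher and 3 lower (1 and 1 after median centring), and PC9-AMG against PC9-BrM4 called 2 higher and 4 lower (4 and 1), of which 0 of 4 and 3 of 6 held without each library.

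Of 24 further genes tied to brain metastasis in earlier work, 17 were tested. In PC9-BrM4 against PC9, 6 were higher and 4 lower (3 and 5 after median centring), where 16.3% of all tested genes were called. In PC9-AMG against PC9, 3 were higher and 2 lower (3 and 2), beside 7.49% of all. In PC9-AMG against PC9-BrM4, 2 were higher and 7 lower (4 and 4), beside 18.6% of all. Of these calls, 4 of 10, 2 of 5 and 5 of 9 held without each library. ANGPTL4, a secreted protein that loosens vessel walls, averaged 48.6 ± 0.719 TPM in PC9-AMG, 102 ± 11.03 TPM in PC9-BrM4 and 56.7 ± 0.164 TPM in PC9. It rose in PC9-BrM4 against PC9 (0.83, adjusted p = 0.000917) and was lower in PC9-AMG than in PC9-BrM4 (-1.05, adjusted p = 0.000267), and both calls held without each library.

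Among the 16 tested genes that lie nearest to the 8 genes, 1 on each side of each, 5 were called in PC9-BrM4 against PC9, 1 in PC9-AMG against PC9 and 2 in PC9-AMG against PC9-BrM4, where 16.3%, 7.49% and 18.6% of all tested genes were called. None of these calls held without each library. CTSK, the cathepsin gene 30251 bases from CTSS, averaged 5.58 TPM in PC9-AMG, 5.48 TPM in PC9-BrM4 and 6.10 TPM in PC9 and was not called.

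**Figure D3:**
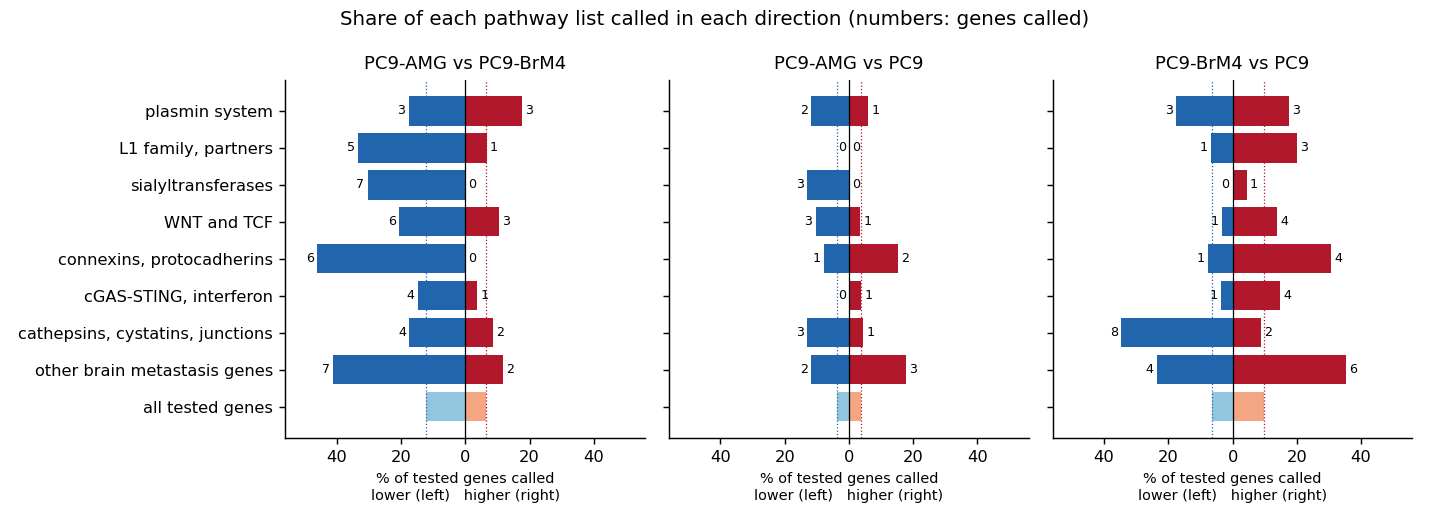
Percent of the tested genes of each pathway list (rows) called higher (right of 0) and lower (left of 0), with the number of genes at each bar, in PC9-AMG against PC9-BrM4, PC9-AMG against PC9 and PC9-BrM4 against PC9. The bottom row and dotted lines give all tested genes. The list of cathepsins, cystatins and junction genes had 8 lower and 2 higher in PC9-BrM4 against PC9. The sialic acid list had 7 lower and 0 higher in PC9-AMG against PC9-BrM4.

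**Figure D4:**
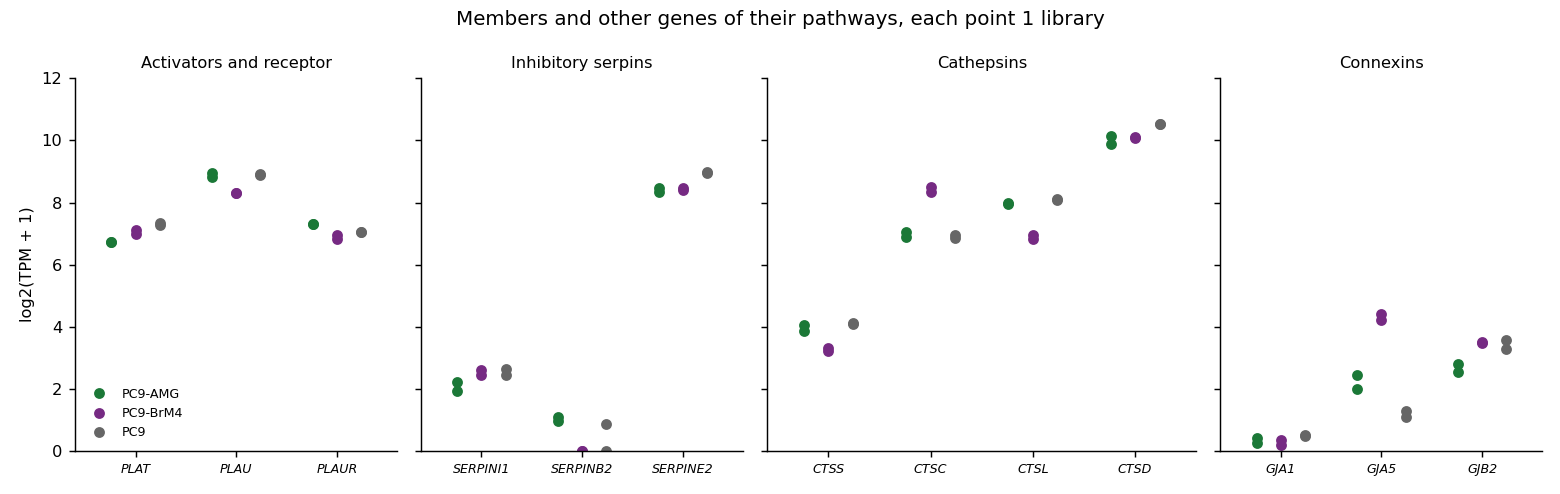
Levels on log2(TPM + 1) (y axis) of members and other genes of their pathways (x axis), with 1 point for each library of PC9-AMG, PC9-BrM4 and PC9. PLAU and CTSL were lowest in PC9-BrM4, and GJA5 and CTSC were highest there.

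Since CTSS is abundant in microglia and macrophages, and GJA1 and several other genes here are made by brain cells, markers of such cells are given beside them. Of 14 microglia and macrophage markers, 8, AIF1, CX3CR1, P2RY12, TMEM119, C1QA, C1QB, C1QC and TYROBP, were at 0 in all 6 libraries. The summed level of the list was 225 to 246 TPM in PC9-AMG, 166 to 181 TPM in PC9-BrM4 and 226 to 234 TPM in PC9, most of it CD68, a lysosomal protein that other cells also make. CD68 averaged 221 ± 12.8 TPM in PC9-AMG, 156 ± 9.33 TPM in PC9-BrM4 and 219 ± 4.83 TPM in PC9 (-0.48 for PC9-BrM4 against PC9, adjusted p = 0.00651, lost without PC9 library 1, 0.0872, or library 2, 0.0610). Of the 14 markers 3 were tested, and the other 2 had their highest means in PC9-BrM4, where CTSS was lowest. ITGAM averaged 6.58 ± 0.543 TPM in PC9-AMG, 7.56 ± 1.39 TPM in PC9-BrM4 and 3.38 ± 0.0249 TPM in PC9 and rose in PC9-BrM4 against PC9 (0.96, adjusted p = 0.00746, or 0.0528 without PC9 library 2). CSF1R averaged 8.11 ± 1.83 TPM in PC9-AMG, 9.83 ± 0.186 TPM in PC9-BrM4 and 7.15 ± 0.241 TPM in PC9 and was not called. The list's median difference for PC9-BrM4 against PC9, over only these 3 genes, was 0.41, beside 0.09 over all tested genes. That comparison called 1 of the 3 higher and 1 lower, where 16.3% of all tested genes were called. The part of these markers in the CTSS difference was not tested.

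Of 12 astrocyte markers, GFAP, S100B and GJB6 were at 0 in all 6 libraries, and the list summed to 199 to 210 TPM in PC9-AMG, 164 to 178 TPM in PC9-BrM4 and 191 to 192 TPM in PC9. ALDOC, a glycolytic enzyme, averaged 107 ± 2.63 TPM in PC9-AMG, 55.7 ± 1.63 TPM in PC9-BrM4 and 107 ± 6.14 TPM in PC9. Of the 7 tested, PC9-BrM4 against PC9 called 3 higher and 1 lower, where 16.3% of all tested genes were called. PC9-AMG against PC9 called 0 higher and 1 lower (7.49% of all), and PC9-AMG against PC9-BrM4 called 2 higher and 4 lower (18.6% of all). Of these calls, 3 of 4, 0 of 1 and 3 of 6 held without each library. In PC9-BrM4 against PC9 the held calls were ALDOC, which fell (-0.93, adjusted p = 0.000223), the growth factor receptor FGFR3, which rose (1.86, adjusted p = 0.000206), and the glutamate transporter SLC1A3. SLC1A3 had 3.44 and 2.12 TPM in PC9-BrM4 but a listed value of 0 in each PC9 library (adjusted p = 0.00178). It passed the filter only through the 2 PC9-BrM4 libraries in which it was high, so its calls, counted above, are a description only. Of 12 markers of lung epithelium, 9 reached 1 TPM, EPCAM and keratins among them, but SFTPB and SFTPC were at 0 and NKX2-1 did not exceed 0.283 TPM. All tested genes were called lower at 6.45% in PC9-BrM4 against PC9. In either direction, 7.49% were called in PC9-AMG against PC9 and 18.6% in PC9-AMG against PC9-BrM4. Of the 9 markers, EPCAM (851 ± 6.94 against 702 ± 4.82 TPM) and CDH1 (141.5 ± 24.8 against 108 ± 1.21 TPM) were higher in PC9-BrM4 than in PC9 without overlap, but not called. Of all tested genes, 39.2% were higher without overlap in that comparison. PC9-BrM4 against PC9 called 5 of these 9, all lower, of which KRT7 (-0.63), KRT18 (-0.61) and KRT19 (-0.47) held without each library. Of the same 9, 0 were called higher and 3 lower in PC9-AMG against PC9, none of which held, and 3 higher and 2 lower in PC9-AMG against PC9-BrM4, of which 3 held. The part of the astrocyte and epithelial markers in the differences of the 8 genes was not tested. Markers of neurons, oligodendrocytes, endothelium and fibroblasts, 10 each, had 0 called genes in any comparison among the few tested. In that order, 4, 4, 2 and 4 were at 0 throughout, SNAP25, MOG, CLDN5 and LUM among them. Others were present: 4, 2, 3 and 1 reached 1 TPM in some library, among them TUBB3, MBP, EGFL7 and COL1A1. Over the libraries, the neuron list summed to 133.3 to 164.2 TPM and the oligodendrocyte list to 45.25 to 55.98 TPM. The endothelial list summed to 143.9 to 179.3 TPM and the fibroblast list to 9.305 to 18.14 TPM. In bulk RNA, fewer cells of a type and less RNA per cell cannot be told apart.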

How the data were processed

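The 6 libraries, 2 each of PC9-AMG, PC9-BrM4 and PC9, were sequenced as stranded mRNA of total RNA, per the labels' protocols. HISAT2 2.1.0, StringTie 1.3.4d and the human genome build hg38 are named in the submitters' processing notes; the annotation and any filter are not given in the sources used here. Each deposited library table holds, per the file headers, TPM, FPKM and coverage (mean reads per base) that the authors made. TPM of genes with more than 1 row was summed, and the 8 genes had the same TPM in the deposited table over all libraries within 0.001 TPM. Read counts were not used here and the depth is unknown: no counting interval was computed, and a gene listed at 0 may be one whose estimate failed.

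TPM was tested on log2(TPM + 1), a scale that understates changes of low genes, with limma 3.58.1 in R 4.3.3 (a mean per group, all 6 libraries, variance trend, two-sided, 3 residual degrees of freedom). Genes that reached 1 TPM in 2 or more libraries entered, and p-values were Benjamini-Hochberg adjusted over these 14627 genes with a threshold of 0.05. The script was tested on simulated data. A call is said to hold without each library when it remained in all fits that left out 1 library of the comparison. The members and lists were chosen with earlier results of these data known. Named genes are the 8 members, up to 3 called genes with the largest differences per list and comparison, and a fixed set of partners (PLAT, HOXB9 and JAM2 among them), of which the text gives a selection, and some are not reported here. PLG, the markers and the nearest genes were added after values were seen. Profiles were compared for members whose group means ranged over at least 1 on log2(TPM + 1). Older symbols were used where the files hold them. Promoter windows came from RefSeq (GRCh38.p14), with 7 of 8 genes matched. Alternatives were the scaling, pseudocount, filter, FPKM, moderation, a replicate block and leaving out each library.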

Additional observations from a re-analysis of the deposited data

How the results depend on the processing

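The depth is not known and groups of 2 leave little to estimate the spread from, so values near 1 TPM or below are the least certain. Of 297 alternative values of the member differences, 276 kept their direction and side of the threshold, 18 lost a call and 3 changed sign. The sign changes were of uncalled differences, SERPINI1 in PC9-BrM4 against PC9, which ran between -0.12 and 0.09 without 1 library (0.09 without PC9 replicate 2 and 0.07 without PC9-BrM4 replicate 1), and ST6GALNAC5 in PC9-AMG against PC9 at -0.61 to 0.26 (0.26 without PC9 replicate 1). Leaving out 1 library gave 892 to 1726 genes called in PC9-BrM4 against PC9 (2389 with all), 131 to 369 in PC9-AMG against PC9 (1096) and 1024 to 2886 in PC9-AMG against PC9-BrM4 (2720). The members called were then 2 to 3 in PC9-BrM4 against PC9 (4 with all), 0 in PC9-AMG against PC9 (1) and 1 to 3 in PC9-AMG against PC9-BrM4 (3). Without the filter, PC9-AMG against PC9 called 250 genes and 0 members, and PC9-AMG against PC9-BrM4 called 1799 genes; without the variance trend PC9-AMG against PC9 called 325 genes. PCDH7 in PC9-BrM4 against PC9 also lost its call without the filter (adjusted p = 0.0710) and with only the 4 libraries compared (0.0508), and L1CAM in PC9-AMG against PC9-BrM4 without the filter (0.0635) and without the variance trend (0.0569). The causes of these changes were not tested.

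Same-numbered libraries did not deviate together (correlations of 0.003 to 0.029 and -0.039). Whether they were prepared together is not given, and with 2 libraries per group these correlations cannot settle it. With the replicate number as a block, 1298, 2905 and 2483 genes were called in PC9-AMG against PC9, PC9-AMG against PC9-BrM4 and PC9-BrM4 against PC9, with 1, 3 and 3 members, as PCDH7 in PC9-BrM4 against PC9 came to 0.0550. Median centring moved the median difference of all tested genes in PC9-AMG against PC9-BrM4, which is -0.131 as reported, to 0.042. The called genes were then 1606 higher and 900 lower (923 and 1797 as reported), 685 and 436 in PC9-AMG against PC9 (537 and 559), and 917 and 1293 in PC9-BrM4 against PC9 (1446 and 943). Quantile normalization gave 1326 and 1137, 671 and 561, and 1088 and 1253 in the same order. The member calls and their directions remained under both.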
